A study of Mus musculus with 12 samples.

Results

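The 10 genes described here encode structural proteins of the basement membrane, and they are 10 of the 24881 gene symbols in the deposited expression table. They comprise the collagen IV chains *Col4a1* and *Col4a2*, the collagen XVIII chain *Col18a1*, the laminin chains *Lama1*, *Lama5*, *Lamb1* and *Lamc1*, the nidogens *Nid1* and *Nid2*, and *Sparc*. They were chosen by symbol, with the fall of the collagens in P53-/- cells cultured in 2i already seen in the FPKM values. Differences between P53-/- and WT in 2i are therefore given for them as a description, with no p-value, and the number of them past the thresholds used for all genes supports nothing. Each of the 10 genes passed the filter on low values, a mean of at least 0.5 FPKM over the 8 libraries, although *Col4a1* and *Col4a2* lay under 0.5 FPKM on average in P53-/- 2i and passed through the other groups.

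RNA-seq was performed on R1 mouse embryonic stem cells (ESCs) that carry the FUCCI reporters, fluorescent proteins that mark cell cycle phases, and all cells were sorted in G1 phase. WT ESCs and ESCs with a p53 KO (P53-/-) were grown in serum medium with LIF or in 2i, a serum-free medium with LIF, the MEK inhibitor PD0325901 and the GSK3 inhibitor CHIR99021. Both genotypes in both cultures make 4 groups, with 2 libraries of rRNA-depleted total RNA in each. The knockout was made with CRISPR/Cas9 in an exon common to the *Trp53* isoforms, and a pair of clones was used for sequencing, but the table does not say which clone a library came from or whether both libraries of a group were grown separately. The p-values therefore measure the spread between these libraries, which may be technical. P21 KO ESCs and the WT 2i libraries paired with them were not analysed here.

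Values are FPKM, fragments scaled by transcript length and by the number of mapped fragments, so that levels can be compared between genes as well as between libraries. Libraries within a group are numbered by their order in the table. The depth of a library is not recorded with FPKM values. From the spacing of the smallest values it was estimated at 5300000 to 13400000 fragments, up to a factor common to all libraries. *Trp53* stood at 7.25 and 1.88 FPKM in P53-/- 2i against 26.8 and 33.7 in WT 2i, and at 16.8 and 3.68 in P53-/- serum against 77.6 and 75.1 in WT serum, so each P53-/- library lay below the WT libraries of its culture. The 8 pluripotency markers were all above 1 FPKM in every library, with sums from 3114 to 4289 FPKM. Of these, *Klf4* was called lower for P53 loss in 2i, at 23.2 and 26.3 FPKM against 48.2 and 48.3, a log2 fold change of -0.96 (limma adjusted p = 0.00782).

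A basement membrane is a thin sheet of extracellular matrix on which epithelia rest, and in the early embryo it forms beneath the epiblast and the primitive endoderm. Laminins, each built of an alpha, a beta and a gamma chain, assemble into a first network on the cell surface. Collagen IV forms a second network that gives the sheet its strength, and nidogens link both. SPARC, a secreted calcium-binding glycoprotein, binds collagen IV, and collagen XVIII carries heparan sulfate chains and releases endostatin from its end. Collagen IV of the most widespread kind contains alpha-1 and alpha-2 chains in the same molecule, and the genes of these chains lie head to head.

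The sequences around the start sites of the 4 genes with the largest differences between P53-/- and WT in 2i are shown, since the collagen IV pair shares its start region. They come from RefSeq on GRCm38.p6 and run from 250 bases before the start site to 50 bases after it, written 5′ to 3′ on the strand of the gene. The deposited values were made on another build (mm9), and genes were matched to sequences by symbol only. In the *Col4a1* window (chr8:11312777-11313076, minus strand) and the *Col4a2* window (chr8:11312555-11312854, plus strand), capitals mark the 78 bases that the windows share. The start sites lie 21 bases apart, at 11312826 for *Col4a1* and 11312805 for *Col4a2*, and the annotated first exons overlap by 22 bases on opposite strands.
Col4a1: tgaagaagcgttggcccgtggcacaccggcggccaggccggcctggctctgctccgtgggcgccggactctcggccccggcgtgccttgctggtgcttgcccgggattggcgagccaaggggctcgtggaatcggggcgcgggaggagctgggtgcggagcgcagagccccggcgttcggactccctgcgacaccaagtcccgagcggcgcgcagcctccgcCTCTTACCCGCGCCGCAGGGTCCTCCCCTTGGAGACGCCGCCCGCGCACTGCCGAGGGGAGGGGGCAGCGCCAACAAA
Col4a2: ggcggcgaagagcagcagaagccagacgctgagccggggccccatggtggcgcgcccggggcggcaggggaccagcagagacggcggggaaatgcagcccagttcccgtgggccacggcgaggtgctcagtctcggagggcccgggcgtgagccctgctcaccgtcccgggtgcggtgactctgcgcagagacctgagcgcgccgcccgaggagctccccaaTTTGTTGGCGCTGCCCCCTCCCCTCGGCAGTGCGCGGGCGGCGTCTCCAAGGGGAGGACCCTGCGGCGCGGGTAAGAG
In the windows of the other genes, capitals mark GC boxes, the letters GGGCGG on either strand. *Col18a1* has a pair of windows on the minus strand, 52825 bases apart, at chr10:77166481-77166780 (distal) and chr10:77113656-77113955 (proximal). The window of *Lama5* lies on the minus strand at chr2:180225810-180226109.
Col18a1 distal: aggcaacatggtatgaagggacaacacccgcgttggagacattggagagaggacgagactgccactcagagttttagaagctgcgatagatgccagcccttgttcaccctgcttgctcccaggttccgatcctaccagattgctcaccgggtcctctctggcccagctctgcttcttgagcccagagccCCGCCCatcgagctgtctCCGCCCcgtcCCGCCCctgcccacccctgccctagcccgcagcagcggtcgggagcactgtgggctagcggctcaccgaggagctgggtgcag
Col18a1 proximal: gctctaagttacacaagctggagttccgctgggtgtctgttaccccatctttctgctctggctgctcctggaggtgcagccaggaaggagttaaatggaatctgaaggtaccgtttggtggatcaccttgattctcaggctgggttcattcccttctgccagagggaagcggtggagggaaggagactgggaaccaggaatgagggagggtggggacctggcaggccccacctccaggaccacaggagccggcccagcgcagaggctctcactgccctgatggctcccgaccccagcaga
Lama5: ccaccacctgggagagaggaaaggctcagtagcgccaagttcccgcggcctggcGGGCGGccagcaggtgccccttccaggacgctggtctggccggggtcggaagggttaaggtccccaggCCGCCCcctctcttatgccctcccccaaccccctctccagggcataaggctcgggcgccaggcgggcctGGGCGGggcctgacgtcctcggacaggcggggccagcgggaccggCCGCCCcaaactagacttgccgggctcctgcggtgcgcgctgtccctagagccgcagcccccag
The distal *Col18a1* window held 3 GC boxes and the proximal window none, and the *Lama5* window held 4. The *Col4a2* window held 3 and the *Col4a1* window 1. At least 1 GC box was present in 35.7% of the 32851 windows of the same length. GC content was 74% for *Col4a1*, 73.7% for *Col4a2*, 72.7% for *Lama5*, and 63.3% and 59.7% for the distal and proximal *Col18a1* windows, against a median of 52.7% over all windows. The CCAAT box, the letters CCAAT on either strand, was found in the *Col4a1*, *Col4a2* and distal *Col18a1* windows and in 37.4% of all windows. The consensus of a P53 half-site had no match in these 5 windows, 1 match each in the windows of *Nid1* and *Sparc*, and a match in 8.36% of all windows. Windows were found for 7 of the 10 genes, and the level of a gene with several starts cannot be assigned to one of them from these values.

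On the log2 scale the differences between groups were widest for *Col4a1*, a collagen IV gene. *Col4a1* was listed at 17.1 and 17.4 FPKM in serum and 1.94 and 0.755 in 2i for WT ESCs, and at 11.2 and 11.5 in serum and 0.0907 and 0.296 in 2i for P53-/- ESCs. The 4 groups did not overlap, with serum far above 2i and P53-/- below WT in each culture. *Col4a2* was listed at 6.10 and 6.31 FPKM in serum and 1.1997 and 0.689 in 2i for WT ESCs, and at 3.39 and 3.40 in serum and 0.186 and 0.442 in 2i for P53-/- ESCs. Its groups were ordered in the same way and did not overlap either. The levels in P53-/- 2i rest on few fragments, about 6 and 11 for *Col4a1* and about 11 and 16 for *Col4a2* by the depth estimate, against 827 and 1514 for *Col4a1* in WT serum.

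*Col18a1* was listed at 33.3 and 36.7 FPKM in serum and 5.60 and 8.96 in 2i for WT ESCs, and at 37.0 and 34.1 in serum and 2.70 and 1.89 in 2i for P53-/- ESCs. The serum libraries of both genotypes overlapped, whereas in 2i each P53-/- library lay below both WT libraries.

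Among the laminin alpha chains, *Lama1*, the alpha chain of laminin-111 in early embryos, had a narrow range. It was listed at 16.4 and 16.6 FPKM in serum and 10.2 and 12.8 in 2i for WT ESCs, and at 16.0 and 9.53 in serum and 10.5 and 9.20 in 2i for P53-/- ESCs, and the 2i groups overlapped. *Lama5*, the alpha chain of laminin-511 on which pluripotent cells adhere, was listed at 13.4 and 14.5 FPKM in serum and 14.2 and 15.6 in 2i for WT ESCs, and at 14.3 and 11.8 in serum and 6.40 and 6.18 in 2i for P53-/- ESCs. The P53-/- 2i libraries were the lowest of the 8, and the other 6 lay between 11.8 and 15.6.

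The beta and gamma chains that both of these alpha chains assemble with followed culture. *Lamb1* was listed at 17.0 and 16.1 FPKM in serum and 3.86 and 5.63 in 2i for WT ESCs, and at 21.4 and 15.6 in serum and 2.33 and 4.02 in 2i for P53-/- ESCs. *Lamc1* was listed at 55.1 and 56.5 FPKM in serum and 29.1 and 31.7 in 2i for WT ESCs, and at 62.1 and 50.3 in serum and 23.3 and 20.05 in 2i for P53-/- ESCs. For both chains every serum library was above every 2i library, and in 2i the genotypes overlapped for *Lamb1* and not for *Lamc1*.

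The nidogens, which link laminin to collagen IV, stood in opposite order between the cultures. *Nid1* was listed at 28.0 and 28.6 FPKM in serum and 52.5 and 38.3 in 2i for WT ESCs, and at 29.5 and 31.1 in serum and 39.9 and 34.1 in 2i for P53-/- ESCs. *Nid2* was listed at 51.9 and 58.9 FPKM in serum and 30.02 and 29.7 in 2i for WT ESCs, and at 51.5 and 70.2 in serum and 23.8 and 30.6 in 2i for P53-/- ESCs. All 2i libraries were above all serum libraries for *Nid1* and below them for *Nid2*. *Sparc* was listed at 66.0 and 65.2 FPKM in serum and 105 and 84.9 in 2i for WT ESCs, and at 67.9 and 74.5 in serum and 71.6 and 55.8 in 2i for P53-/- ESCs. Both WT 2i libraries were above the other 6.

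**Figure D1:**
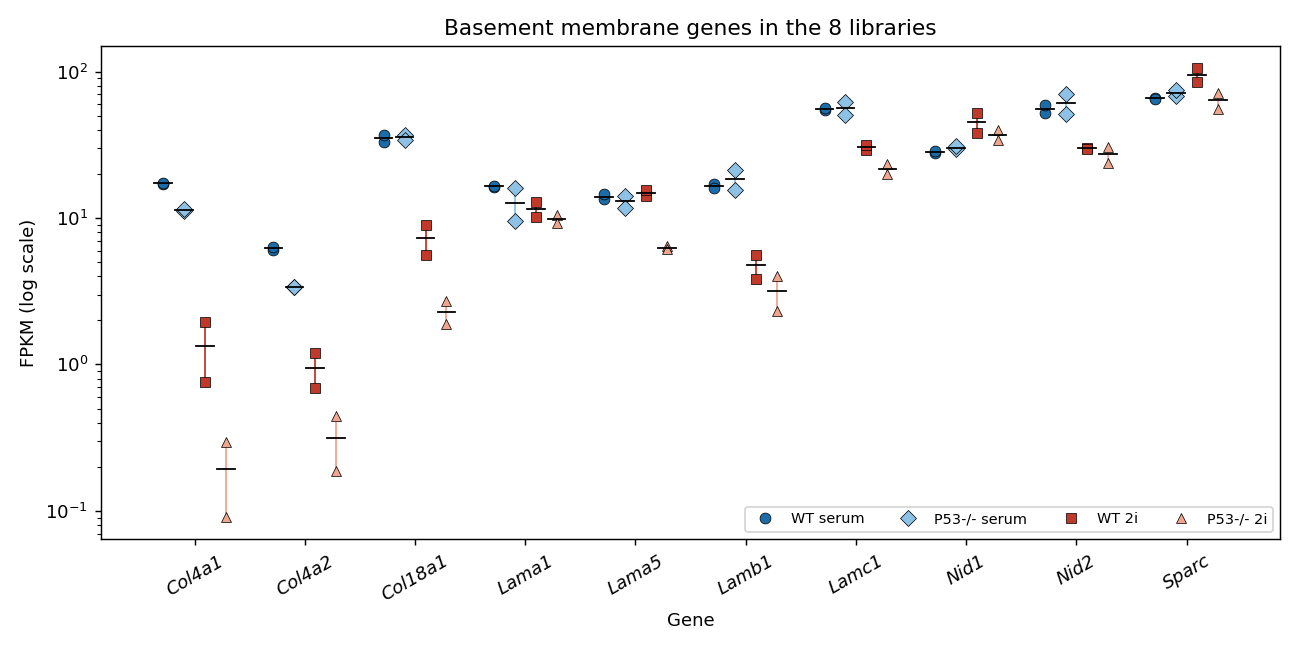
FPKM on a log scale for the 10 basement membrane genes; each point is 1 library, a line joins the libraries of a group and the black bar is their mean. *Col4a1* spans 0.0907 to 17.4 FPKM, whereas *Sparc* lies between 55.8 and 105 FPKM in all 8 libraries.

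In the order of mean levels *Sparc* stood highest in each of the 4 groups, at 65.6 ± 0.58 FPKM (SD, n = 2) in WT serum and 63.7 ± 11.2 (SD, n = 2) in P53-/- 2i. Its libraries overlapped with those of *Nid2*, the next gene, in P53-/- serum only. In WT serum it was followed by *Lamc1* and *Nid2*, which overlapped, and then by *Col18a1*, *Nid1* and *Col4a1*. *Lamb1* and *Lama1* came next and overlapped, and *Lama5* and *Col4a2* stood lowest. In both 2i groups *Nid1* came next after *Sparc*, and the collagen IV genes were the lowest pair, with overlapping libraries. *Col18a1*, at rank 4 in both serum groups, was at rank 7 in WT 2i and rank 8 in P53-/- 2i, where its libraries overlapped with those of *Lamb1*. The levels of the 10 genes summed to between 304 and 317 FPKM in the serum libraries, 254 and 229 in the WT 2i libraries, and 181 and 163 in those of P53-/- 2i. The 3 collagens made up 15.7% to 19.1% of that sum in serum, 3.44% and 4.54% for WT ESCs in 2i, and 1.65% and 1.61% for P53-/- ESCs in 2i.

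P53 loss in 2i is the comparison that chose the genes. On the log2 scale with a pseudocount of 0.1 FPKM, the difference between P53-/- and WT was -2.26 (SE 0.45) for *Col4a1*, -1.36 (SE 0.37) for *Col4a2*, -1.61 (SE 0.24) for *Col18a1* and -1.23 (SE 0.14) for *Lama5*. These folds are 4.80, 2.57, 3.05 and 2.35. Those of collagen IV depend on the pseudocount, since its values in P53-/- 2i lie near it. With a pseudocount of 1 FPKM they were 1.91 for *Col4a1* and 1.47 for *Col4a2*, which then no longer passed the thresholds given below, and with 0.01 FPKM they were 6.95 and 3.09. The remaining differences were smaller, at -0.59 (SE 0.29) for *Lamb1*, -0.58 (SE 0.16) for *Sparc*, -0.49 (SE 0.14) for *Lamc1*, -0.28 for *Nid1*, -0.21 for *Lama1* and -0.15 for *Nid2*. All 10 differences were below 0, except that *Nid2* stood at 0.09 with values centred on chromosome medians and at 0.03 without P53-/- 2i library 1. The median was -0.59, against 0.02 over the 12572 genes tested. Genes were called where the limma adjusted p was under 0.1 and the fold exceeded 1.5. Of the 10 genes, 4 passed these thresholds as lower and 0 as higher, where 5.97% of all genes were called lower and 4.36% higher. In a fit of the compared groups only, 1 gene, *Lama5*, passed as lower. In addition, the groups did not overlap for 6 genes, all lower, where 24.7% of all genes lay lower and 29% higher without overlap. Nothing is read from these counts, since this contrast chose the genes.

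The WT 2i libraries differed from each other in the collagens. *Col4a1* and *Col4a2* were higher in library 1 and *Col18a1* was higher in library 2. Without library 1 the log2 differences for P53 loss in 2i were -1.64 for *Col4a1*, -1.002 for *Col4a2* and -1.94 for *Col18a1*, and without library 2 they were -2.89, -1.72 and -1.27. Library 1 also held 6.63 FPKM of *Hnf4a*, an endoderm transcription factor, against 0.938 in library 2, 103 FPKM of the keratin *Krt8* against 51.9, and 16.0 FPKM of vimentin (*Vim*) against 76.1. The part of these differences in the collagen levels was not tested.

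Primitive and parietal endoderm cells make much basement membrane, and their markers were checked. The 19 markers summed to 17.9 and 13.9 FPKM in the WT libraries and to 5.98 and 7.05 in the P53-/- libraries of 2i, 10.3 in both WT serum libraries, and 10.04 and 8.44 in P53-/- serum. Between 1 and 4 of the 19 were above 1 FPKM in a library. Of the defining markers, *Gata6* reached at most 0.397 FPKM in any library, *Sox17* 1.09 and *Gata4* 2.40, and *Ttr* was listed at 0 in every library. The sum was thus lower in P53-/- 2i than in WT 2i, as for the collagens, whereas in serum, where the collagens were highest, it was below that of WT 2i. Single markers differed from the sum. *Lrp2* followed the culture difference of the collagens, with 4.65 to 7.42 FPKM in the serum libraries and 0.557 to 0.663 in those of 2i, and it was called lower in WT 2i than in WT serum, a log2 fold change of -2.68 (limma adjusted p = 0.000133). *Fst* fell with P53 loss in 2i, from 3.92 and 8.17 to 1.78 and 1.86 FPKM, by 1.59 (limma adjusted p = 0.0463), and was higher in 2i than in serum. The part of endoderm-like cells in the collagen levels was not tested.

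The 18 fibroblast markers, which a feeder layer would bring, summed to between 23.1 and 81.3 FPKM, and 2 to 4 of them were above 1 FPKM in a library. *Vim* made up most of each sum, at 16.0 to 76.1 FPKM. *Thy1* followed the culture difference of the collagens, with 7.55 to 10.5 FPKM in serum and 0.343 to 0.972 in 2i, and was called lower in WT 2i than in WT serum, a log2 fold change of -3.53 (limma adjusted p = 0.000299). *Col5a2* went the other way, with 0.840 to 2.24 FPKM in 2i and at most 0.215 in serum. *Col5a1* was the 1 marker of this list called lower for P53 loss in 2i, with 0.712 and 0.654 FPKM against 1.57 and 1.53, a log2 fold change of -1.08 (limma adjusted p = 0.0542). *Col3a1* and *Postn* were listed at 0 in every library and *Col1a2* reached at most 0.0296 FPKM. *Col1a1* was low throughout, did not pass the filter on low values and was not tested. Its WT 2i libraries held 0.368 and 0.501 FPKM, those of P53-/- 2i only 0.0847 and 0.0301, and no serum library exceeded 0.183. With P53 loss in 2i it thus fell without overlap, as the collagens did, whereas its serum levels lay below those of WT 2i. The cells were sorted in G1 phase by their FUCCI reporters, and the purity of the sort was not tested here. The part of fibroblasts in the collagen levels was not tested. In bulk samples, fewer cells of a type and less RNA per cell cannot be told apart.

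P53 loss in serum did not serve to choose the genes and was tested. None of the 10 passed (limma, 0 of 10 called and 0 of 10 at an unadjusted p under 0.05), where 0.883% of all genes were called lower and 0.135% higher. *Col4a2* had the largest difference, a log2 fold change of -0.85 (SE 0.37, 95% interval -1.71 to 0.01, limma adjusted p = 0.443), and both of its P53-/- libraries were below both WT libraries. *Col4a1* differed by -0.60 on the log2 scale (SE 0.45, 95% interval -1.64 to 0.45, limma adjusted p = 0.656), likewise without overlap. For *Lama1* the value was -0.41 (95% interval -0.97 to 0.14, limma adjusted p = 0.552), and it ranged from -0.79 without P53-/- serum library 1 to -0.04 without P53-/- serum library 2. For *Col18a1*, the difference was 0.02 with a 95% interval from -0.54 to 0.59, and for *Lama5* it was -0.11 with an interval from -0.44 to 0.23. The other 5 genes lay between 0.002 and 0.14 on the log2 scale, with limma adjusted p values of 0.829 and above. The libraries of both genotypes did not overlap for 5 genes, lower for *Col4a1*, *Col4a2* and *Lama1* and higher for *Nid1* and *Sparc*. Over all genes, 21.8% lay lower and 25.7% higher without overlap. The median log2 difference of the 10 was 0.01, against 0.02 over all genes.

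The difference between the effects in 2i and in serum contains the contrast that chose the genes and is given as a description. It was -1.67 (SE 0.64) for *Col4a1*, -0.51 (SE 0.52) for *Col4a2*, -1.63 (SE 0.35) for *Col18a1*, -1.13 (SE 0.20) for *Lama5* and -0.70 (SE 0.23) for *Sparc* on the log2 scale. The collagen IV values depend on the pseudocount and on single libraries. With a pseudocount of 1 FPKM the value was -0.37 for *Col4a1* and turned to 0.15 for *Col4a2*. It was -1.14 and -0.05 without P53-/- 2i library 1, -2.19 and -0.97 without P53-/- 2i library 2, -1.04 and -0.15 without WT 2i library 1, and -2.29 and -0.87 without WT 2i library 2.

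**Figure D2:**
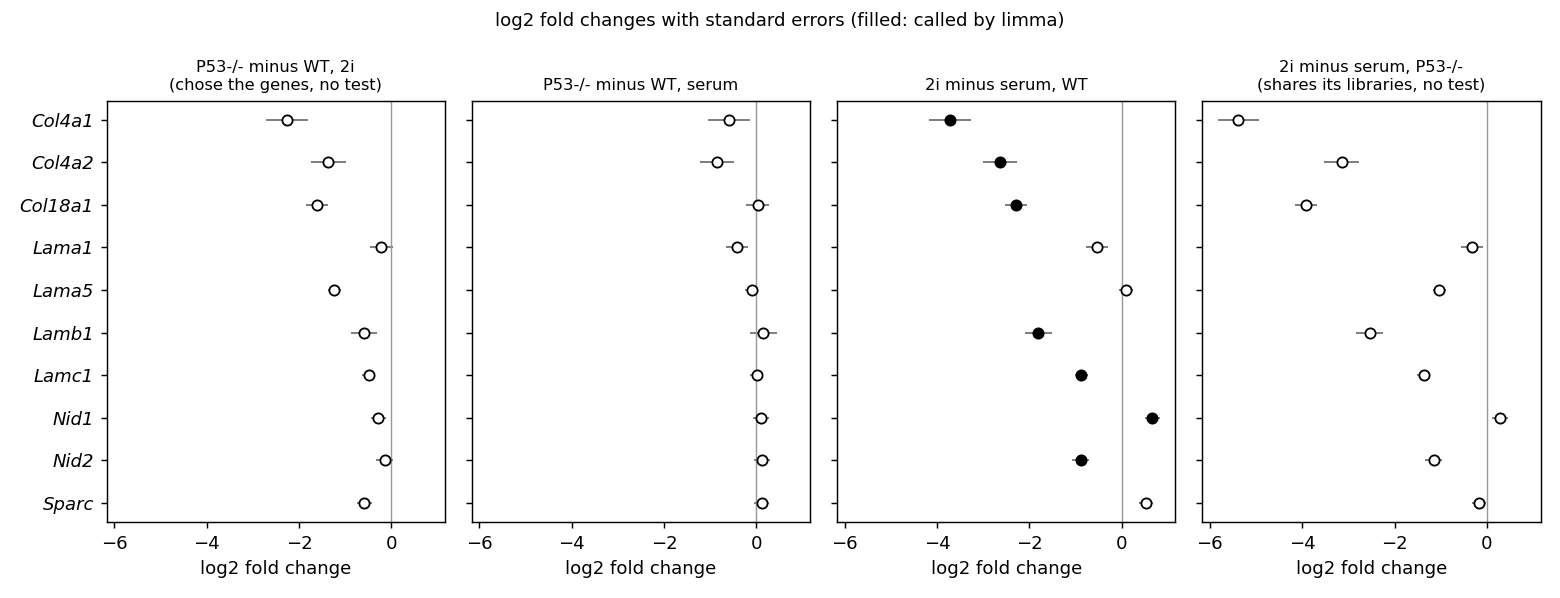
log2 fold changes of the 10 genes in 4 comparisons; bars are standard errors from limma, and filled points passed the test, which was applied in the middle panels only. No gene is filled for P53 loss in serum, and 7 are filled for WT 2i against WT serum, of which only *Nid1* lies to the right of 0.

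Culture was compared next. In WT cells 6 of the 10 genes were called lower in 2i and 1 higher, where 28.6% of all genes tested were called lower and 27.2% higher. This comparison shares the WT 2i libraries with the one that chose the genes. *Col4a1* fell by 3.72 on the log2 scale (SE 0.45, limma adjusted p = 0.000321), a fold of 13.1, and *Col4a2* fell by 2.64 (SE 0.37, limma adjusted p = 0.000637), a fold of 6.22. The *Col4a1* fold was 20.3 without WT 2i library 1 and 8.52 without WT 2i library 2, and with a pseudocount of 1 FPKM the folds were 8.04 for *Col4a1* and 3.74 for *Col4a2*. *Col18a1* fell by 2.29 (SE 0.24, limma adjusted p = 0.000187). Of the laminin chains, *Lamb1* fell by 1.80 (SE 0.29, limma adjusted p = 0.00124) and *Lamc1* fell by 0.88 (SE 0.14, limma adjusted p = 0.00128). *Lama1* differed by -0.53 (95% interval -1.08 to 0.03, limma adjusted p = 0.0921) and stayed just under the fold threshold, and *Lama5* by 0.09 (95% interval -0.24 to 0.43, limma adjusted p = 0.595). With values centred on chromosome medians *Lama1* was called lower, at -0.62, and *Lamc1* was not called, at -0.57. Differences between the chains were not tested. Without overlap of the libraries, 7 of the 10 genes lay lower and 2 higher in WT 2i, beside 41.7% and 40% of all genes.

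*Nid2* fell by 0.89 (SE 0.18, limma adjusted p = 0.00402) in WT 2i and *Nid1* rose by 0.66 (SE 0.17, limma adjusted p = 0.00949). *Sparc* was 0.53 higher (SE 0.16, limma adjusted p = 0.0225), which is a fold of 1.44 and under the threshold of 1.5. Genes of some chromosomes shifted together between the cultures. The median over the 481 genes tested on chromosome 13, which carries *Nid1*, was -0.61, and the median over the 685 genes on chromosome 1, which carries *Lamc1*, was -0.31. With each library centred on its chromosome medians, the difference was 1.26 for *Nid1* and -0.57 for *Lamc1*, and *Lamc1* was no longer called. *Nid1* was also not called without WT 2i library 1, where it was 0.44 higher.

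In P53-/- cells the comparison of 2i with serum uses the P53-/- 2i libraries, whose low collagen levels were known when the genes were listed, and its values are a description. The log2 difference was -5.38 (SE 0.45) for *Col4a1*, -3.15 (SE 0.37) for *Col4a2*, -3.92 (SE 0.24) for *Col18a1*, -2.54 (SE 0.29) for *Lamb1*, -1.36 (SE 0.14) for *Lamc1*, -1.15 (SE 0.18) for *Nid2* and -1.03 (SE 0.14) for *Lama5*. With a pseudocount of 1 FPKM the difference was -3.38 for *Col4a1* and -1.75 for *Col4a2*, and without P53-/- 2i library 1 it was -4.86 and -2.69. With a pseudocount of 0.01 FPKM it was -6.02 for *Col4a1*. These 7 of the 10 genes passed the same thresholds as lower, where 30.1% of all genes did, and 0 of 10 passed as higher, where 28% of all genes did. The libraries did not overlap for 7 genes that lay lower and 1 that lay higher, beside 42.1% and 39.7% of all genes. The values were 0.28 (SE 0.17) for *Nid1*, -0.17 (SE 0.16) for *Sparc* and -0.33 (SE 0.24) for *Lama1*. *Lama5*, whose difference between the cultures was 0.09 in WT cells, had a mean level in P53-/- 2i of 6.29 ± 0.15 FPKM (SD, n = 2), and in WT 2i of 14.9 ± 1.0 (SD, n = 2).

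Ratios between chains that work together were formed within each library, as a description over 2 libraries a group. In serum the ratio of *Col4a1* to *Col4a2* was 2.76 and 2.80 for WT ESCs and 3.31 and 3.40 for P53-/- ESCs. In 2i it was 1.61 and 1.10 for WT ESCs and 0.487 and 0.670 for P53-/- ESCs, so the more abundant chain of the pair changed, although the last values rest on few fragments. *Lamc1* exceeded *Lamb1* by 2.90 to 3.52 times in the serum libraries and by 4.98 to 10.02 times in the 2i libraries. In 2i the ratio of *Lama1* to *Lama5* was 0.716 and 0.818 for WT ESCs and 1.64 and 1.49 for P53-/- ESCs, with the serum libraries between 0.808 and 1.22. *Nid1* to *Nid2* was 0.443 to 0.573 in serum and 1.11 to 1.75 in 2i, and the genotypes overlapped in both cultures.

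**Figure D3:**
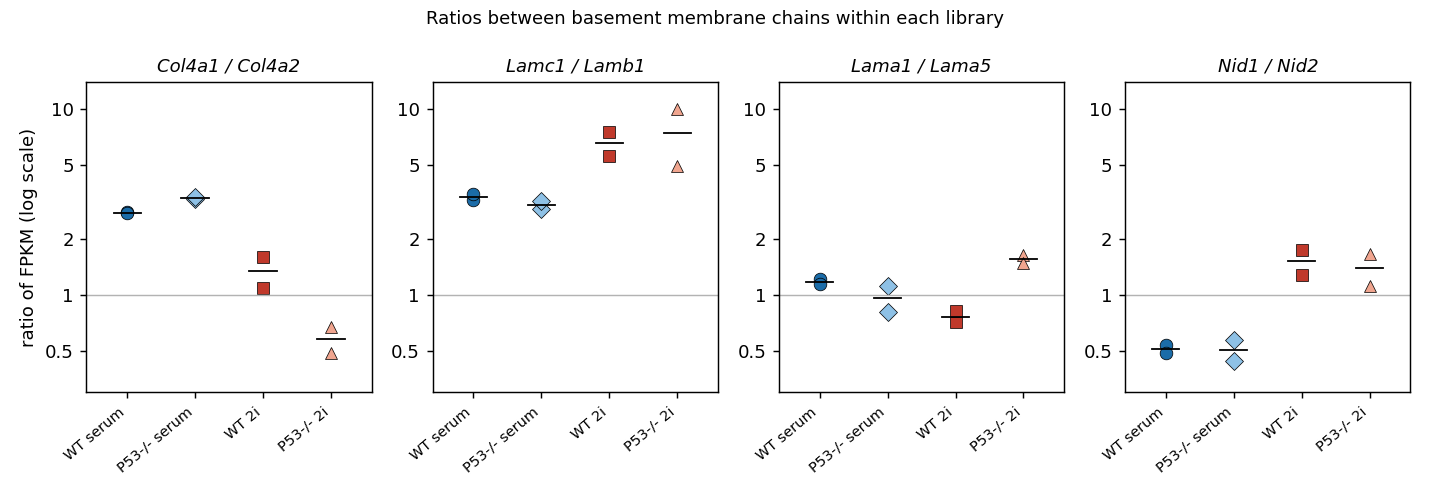
Ratio of FPKM within each library for 4 pairs of chains, on a log scale; each point is 1 library, the black bar is the mean of 2 libraries and the grey line marks a ratio of 1. The *Col4a1* to *Col4a2* ratio is above 2.7 in serum and below 1 in P53-/- 2i, and the *Nid1* to *Nid2* ratio is above 1 in all 2i libraries.

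The other chains of these families mostly had low levels. Of 5 further collagen IV and XVIII family chains only *Col4a5*, an X-linked collagen IV chain, passed the filter, with 0.229 to 1.57 FPKM over the 8 libraries, and *Col4a3*, *Col4a4*, *Col4a6* and *Col15a1* reached at most 0.0458 FPKM. *Col4a5* was called higher in WT 2i than in WT serum (limma), where 27.2% of all genes were, but it averaged under 0.5 FPKM in WT serum and passed the filter through groups where it was higher. Of 7 further laminin chains 3 passed the filter. In WT ESCs *Lama3* was listed at 2.65 and 2.04 FPKM with 2i and 0.511 and 0.784 with serum, a log2 fold change of 1.72 (SE 0.39, limma adjusted p = 0.00639). None of the 4 chains tested was called for P53 loss in either culture (limma), and 1 of them in 2i and 0 in serum had an unadjusted p under 0.05, beside 3173 and 1422 of the 12572 genes tested.

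Genes of 6 further lists, covering other chains, matrix proteins, receptors, collagen synthesis and proteases, were counted for P53 loss in 2i with limma, without the 10 genes above. Of 64 genes tested, 16 were called lower (25%) and 4 higher (6.25%), with a median log2 difference of -0.23 against 0.02 over all genes. The background was 5.97% lower and 4.36% higher. Of the 16, 6 averaged under 0.5 FPKM in P53-/- 2i and passed the filter on low values through other groups. They were *Bmp1*, *Fkbp10*, *Itga9*, *Mmp2*, *Pxdn* and *Serpine2*. In serum 3 of the 64 were called lower (4.69%), *Sdc4*, *Plod2* and *Serpine2*, and 0 higher, beside 0.883% and 0.135% of all genes. An unadjusted p under 0.05 was found for 13 of the 64 and for 1422 of the 12572 genes tested. *Serpine2* averaged under 0.5 FPKM in P53-/- serum and passed the filter through the WT groups. The counts moved with the fit, and a fit of the compared groups only called 5 genes in 2i and 1 in serum.

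Receptors and coreceptors of the basement membrane held more calls in 2i than any other of these lists, 7 lower and 2 higher of 14 tested. These are 50% and 14.3%, beside 5.97% and 4.36% of all genes. *Sdc4*, a syndecan that carries heparan sulfate and acts with integrins, was at 172 and 144 FPKM in WT ESCs and 58.6 and 46.2 in P53-/- ESCs of 2i, a log2 fold change of -1.60 (SE 0.25, limma adjusted p = 0.0133). It also fell in serum, from 37.4 and 31.2 to 13.7 and 8.09 FPKM, by 1.69 (SE 0.25, limma adjusted p = 0.0348). The glypican *Gpc4* fell by 1.64 and *Gpc1* fell by 1.37 in 2i, and *Gpc3* rose by 1.62. The integrin alpha chain *Itga9* fell by 1.68 from low levels of 0.758 and 0.185 FPKM. *Itgb1*, the beta chain shared by the laminin- and collagen-binding integrins, rose by 0.72 (SE 0.11, limma adjusted p = 0.0136), from 35.1 and 36.7 to 55.8 and 62.8 FPKM. The others called lower were *Ddr2*, a collagen receptor kinase, *Sdc1* and the laminin receptor *Bcam*.

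Of 20 genes of collagen synthesis and secretion, 3 were called lower (15%) and 1 higher (5%) for P53 loss in 2i. Over all genes these shares were 5.97% and 4.36%. *Plod2*, a lysyl hydroxylase of collagen, was at 17.1 and 15.2 FPKM in WT ESCs and 4.79 and 5.44 in P53-/- ESCs of 2i, a log2 fold change of -1.64 (SE 0.13, limma adjusted p = 0.000771). In serum it fell by 0.72 (SE 0.13, limma adjusted p = 0.0872), from 19.2 and 19.4 to 11.3 and 12.1 FPKM. *Fkbp10*, a collagen chaperone, fell by 1.80 in 2i (SE 0.22, limma adjusted p = 0.00475), from 1.21 and 1.26 to 0.280 and 0.284 FPKM. It averaged under 0.5 FPKM in P53-/- 2i and passed the filter through other groups. The prolyl hydroxylase subunit *P4ha2* fell by 0.73. *Serpinh1*, the collagen chaperone HSP47, rose by 0.67 (SE 0.19, limma adjusted p = 0.0792) and was the 1 gene of this list called higher.

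Of 16 proteases and inhibitors, 5 were called lower (31.2%) and 0 higher for P53 loss in 2i, beside 5.97% and 4.36% of all genes. *Serpine2*, a serine protease inhibitor, was at 7.21 and 8.36 FPKM in WT ESCs of 2i but at 0.103 and 0 in P53-/- ESCs. In serum it was at 5.98 and 6.74 against 0.442 and 0.427, where it fell by 3.59 (SE 0.36, limma adjusted p = 0.00601). *Mmp2*, a gelatinase that degrades collagen IV, had 0.405 and 1.36 FPKM in the WT 2i libraries and was listed at 0 in both libraries of P53-/- 2i. *Adamts9* fell by 1.39 (SE 0.26, limma adjusted p = 0.0245), and *Bmp1*, a procollagen C-proteinase, was also called lower. Among 10 other basement membrane proteins, *Tinagl1*, which binds laminins and integrins, rose from 5.71 and 4.12 to 27.5 and 27.4 FPKM, by 2.48 (SE 0.33, limma adjusted p = 0.00711). *Pxdn*, the peroxidasin that cross-links collagen IV, fell by 1.06 (SE 0.29, limma adjusted p = 0.0673), from 0.457 and 0.364 to 0.151 and 0.135 FPKM. All of these values lie under 0.5 FPKM, and *Pxdn* passed the filter through the serum groups only.

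In the comparison of WT 2i with WT serum the same lists gave 17 genes lower (26.6%) and 26 higher (40.6%) of 64, beside 28.6% and 27.2% of all genes. Of the genes called lower, 5 averaged under 0.5 FPKM in WT 2i and passed the filter on low values through other groups, *Pxdn*, *Vwa1* and *Itga9* among them, and so did 3 of those called higher, which averaged under 0.5 FPKM in WT serum. *Pxdn* fell by 2.91 (SE 0.29, limma adjusted p = 0.00013), and the matrix protein *Vwa1* fell by 2.75. The chaperone *Fkbp10* fell by 2.37 (SE 0.22, limma adjusted p = 9.65e-05) and *Mia3*, which loads collagen for export, fell by 1.23. The dystroglycan gene *Dag1*, a laminin receptor, fell by 0.998 and *Itga9* fell by 3.72. Higher genes included *Tinagl1*, by 2.57, *Efemp2*, by 2.56, the cross-linking enzyme *Tgm2*, by 2.95 (SE 0.28, limma adjusted p = 0.000117), the prolyl hydroxylase *P3h1*, by 1.23, *Sdc4*, by 2.20, and *Ddr2*, by 1.41. Of the proteases and inhibitors, *Mmp14* fell by 1.53 and *Mmp2* fell by 1.22, whereas *Ctsl* rose by 1.59.

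**Figure D4:**
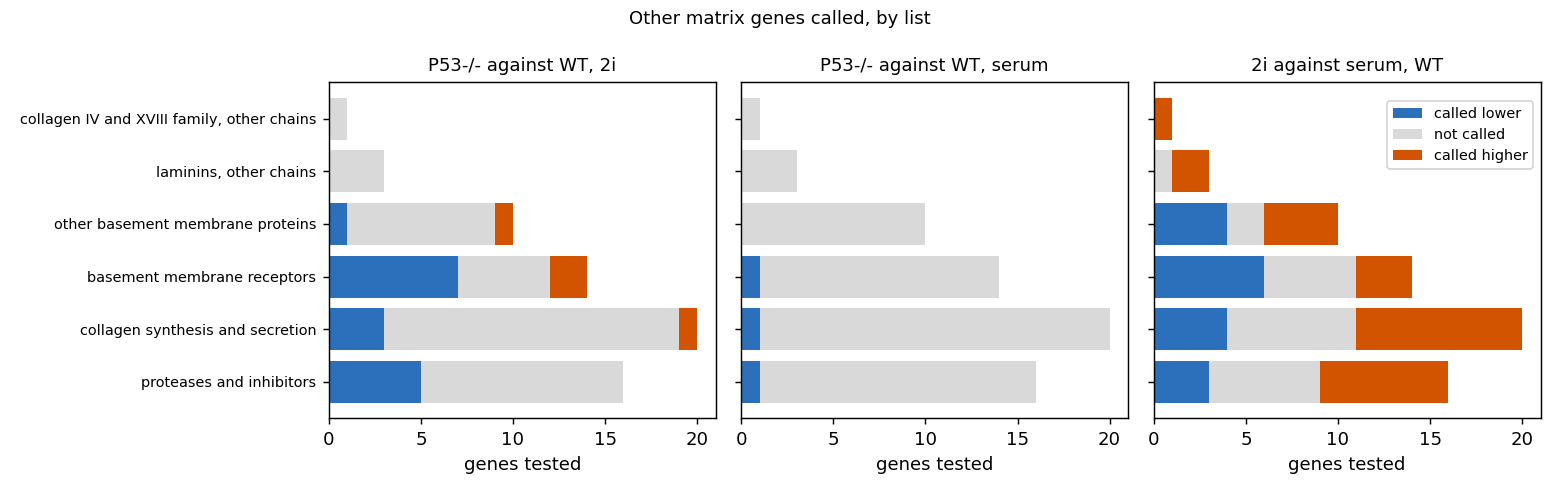
Number of tested genes called lower, not called and called higher by limma in 6 lists of matrix genes, for P53 loss in 2i, P53 loss in serum and WT 2i against WT serum. Receptors hold the most genes called lower for P53 loss in 2i, 7 of 14, and the 3 genes called in serum are 1 each from receptors, synthesis and proteases.

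Genes whose levels followed collagen IV most closely were sought over the 8 libraries, by Pearson correlation of log2(FPKM + 0.1) with the mean of *Col4a1* and *Col4a2* among 11486 genes with a mean of at least 1 FPKM. The libraries are not independent points, since they fall into 2 cultures that differ in most genes, and the values are a description. The 5 highest were *Ptgs1* (0.997), *Nbea* (0.992), *Eif2ak2* (0.990), *Nectin1* (0.990) and *Usp48* (0.988). *Ptgs1*, which encodes a cyclooxygenase, was listed at 3.25 and 3.40 FPKM in serum and 0.523 and 0.200 in 2i for WT ESCs, and at 2.51 and 2.63 in serum and 0 and 0.0641 in 2i for P53-/- ESCs. The same measure gave 0.946 for *Col18a1*, 0.944 for *Lamc1*, 0.941 for *Lamb1*, 0.922 for *Nid2*, 0.704 for *Lama5*, 0.655 for *Lama1*, -0.09 for *Sparc* and -0.64 for *Nid1*.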

How the data were processed

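RNA-seq of G1-sorted mouse ESCs was analysed in 4 groups of 2 libraries. Expression was deposited by the authors as FPKM, in a single table whose columns are the libraries. The submitters' processing notes name STAR, Cufflinks, DESeq2 and mm9, without versions or the step each was used for, and whether counting used strand is not given in the sources used here. Column names give genotype and culture only, and libraries were assigned to groups from these. Small RNA genes (1285 symbols) held 88.5% to 97.6% of a library's summed FPKM.

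Values were used as log2(FPKM + 0.1). A filter on the mean over libraries (0.5 FPKM) left 12572 genes, which limma 3.58.1 (R 4.3.3) compared in a single fit of the 4 groups with a trended eBayes step. Benjamini-Hochberg adjustment ran over all of them. Calls needed an adjusted p under 0.1 together with more than 1.5-fold change. The script was tested on simulated data. Figures were drawn with Python 3.11.15 and matplotlib 3.10.9.

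The 10 genes, the lists of matrix and marker genes and the tests were chosen with earlier results of these data known. Named from each list were called genes that averaged at least 1 FPKM, up to the 4 largest changes in each direction for P53 loss in 2i and up to 2 for the other comparisons. *Ddr2*, *Sdc1*, *Bcam* and *Bmp1* fall outside that rule for P53 loss in 2i and were named to complete the counts, as was *Col4a5*. Some genes that the rule names are not reported here. *Vim*, *Krt8*, *Hnf4a*, *Ttr*, *Klf4*, *Lrp2*, *Fst*, *Thy1*, *Col1a1*, *Col5a1*, *Col5a2* and *Postn* were named after their values were seen. Alternatives were other pseudocounts, filters, scalings and thresholds, fits of the compared groups only, and each library left out in turn. FPKM holds no counts, so no counting intervals are given, and fragments behind a gene were estimated from the steps between low values and the longest coding transcript of GENCODE M21.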

Additional observations from a re-analysis of the deposited data

Results flagged for a closer look

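*Sparc* differed in direction between the cultures upon P53 loss. In serum both P53-/- libraries (67.9 and 74.5 FPKM) were above both WT libraries (66.0 and 65.2), a log2 fold change of 0.12, and in 2i both P53-/- libraries (71.6 and 55.8) were below both WT libraries (105 and 84.9), a log2 fold change of -0.58. The difference between the cultures was not tested, because the 2i contrast was used to choose the gene. Neither value was called in the main fit. Without overlap, 21.8% of all genes lay lower and 25.7% higher in serum, and 24.7% lower and 29% higher in 2i. The 2i value passed the thresholds as lower with quantile normalization, at -0.76. With a library left out it lay between -0.76 and -0.40.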

How the results depend on the processing

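No paired analysis was possible because the columns of the table carry no replicate numbers. For the 10 genes, 0 were called for P53 loss in serum under every alternative and with each library left out. For WT 2i against serum 7 were called, and 7 to 8 under the alternatives and 6 to 9 with a library left out. *Sparc* was called higher with quantile normalization (0.74) and without WT 2i library 2 (0.68), and *Lama1* was called lower with values centred on chromosome medians (-0.62) and without WT 2i library 2 (-0.69). In P53-/- cells *Nid1* passed as higher when centred on chromosome medians (0.78) and *Lama1* as lower without P53-/- serum library 2 (-0.70). The median difference of the 10 genes for P53 loss in 2i was -0.59, between -0.68 and -0.52 under the alternatives and between -0.70 and -0.59 with a library left out. The number of them past the thresholds as lower was 4, but 1 (*Lama5*) in a fit of the compared groups only, 3 with a pseudocount of 1, without the filter or at an adjusted p under 0.05, 5 with quantile normalization, and 3 to 5 with a library left out. *Col4a1* no longer passed without P53-/- 2i library 1, nor did *Col4a2* without that library, WT 2i library 1 or any serum library. With a pseudocount of 1 the difference was -0.93 for *Col4a1* and -0.56 for *Col4a2*, which then no longer passed.

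Of the other matrix genes, 20 were called for P53 loss in 2i, but 5 in a fit of the compared groups only, 12 at an adjusted p under 0.05, and 11 to 18 with a library left out. The lowest, 11, came without P53-/- 2i library 1, and the number was 12 without P53-/- 2i library 2 or either WT serum library and 13 without WT 2i library 1. In serum 3 were called, 1 in a fit of the compared groups only, and 1 to 3 with a library left out, with 1 left without P53-/- serum library 2 or either WT serum library. Over all genes the number called for P53 loss was 1299 in 2i and 128 in serum, against 193 and 37 in fits of the compared groups only, 771 and 73 at an adjusted p under 0.05, and 495 to 1256 and 63 to 168 with a library left out. A lone library left in a group was assumed to vary like the other groups. Depth limits the collagen IV values most, since those in P53-/- 2i rest on an estimated 6 to 16 fragments per gene and library.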

Other observations

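Collagens outside the basement membrane were chosen for mention after their values were seen. *Col5a1*, a fibrillar collagen V chain and like *Col5a2* one of the 18 fibroblast markers, was listed at 0.712 and 0.654 FPKM in P53-/- 2i, 1.57 and 1.53 in WT 2i, 1.30 and 1.53 in P53-/- serum, and 1.26 and 1.33 in WT serum. Its partner *Col5a2* was at 2.24 and 1.51 FPKM in P53-/- 2i, 1.83 and 0.840 in WT 2i, 0.174 and 0.215 in P53-/- serum, and 0.0985 and 0.0613 in WT serum. The P53-/- 2i libraries were thus the lowest of the 8 for *Col5a1*, and all 2i libraries were above all serum libraries for *Col5a2*.

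The trophoblast markers summed to between 67.5 and 131 FPKM in the 2i libraries and between 13.2 and 20.7 in the serum libraries. *Krt8* and *Krt18* made up most of the sum in 2i, whereas *Cdx2* reached at most 1.05 FPKM and *Plac1* was listed at 0 in every library.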
